A study of Drosophila melanogaster with 3 samples.

Results

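Brains of Drosophila larvae homozygous for both the dBRWD3 allele PX2 and the yem insertion GS21861 were set against brains homozygous for PX2 alone. These are 2 of the 3 libraries of the series, 1 library each. The double mutant is labelled dBRWD3PX2/PX2, yemGS21861/GS21861, the single mutant dBRWD3PX2/PX2, and the control dBRWD3PX2/+. Homozygosity for PX2 is thus shared by both mutants, the control still carries 1 PX2 chromosome, and the yem insertion is the labelled difference between the mutants. All brains were dissected in the third instar from flies kept at 25 °C. The sources used here do not state the sex of the larvae, the number of brains in a library or the rest of the genetic background. Expression was compared for 9280 genes, those with at least 1 RPKM (reads scaled to transcript length and library size) in at least 1 mutant, of 13124 named genes in the deposited table.

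BRWD3 is a protein with WD repeats and bromodomains that works as a substrate adaptor of the cullin 4 ubiquitin ligase. Yemanuclein, the product of yem, acts with HIRA to place the histone variant H3.3 into chromatin outside DNA replication. GS insertions are P elements that carry UAS sites and a copy of the eye colour gene w. The larval brain holds dividing neuroblasts, young and mature neurons and glia, and the ring gland, discs, fat body, blood cells and glands lie close to it.

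With 1 library for each genotype there is no spread between replicates, so no difference was tested and every value describes these libraries. A gene is called higher or lower where the ratio of (double mutant + 1) to (single mutant + 1) RPKM was at least 2-fold. All ratios below are the log2 of this ratio unless a fold is named, and a fold is the plain quotient of the 2 RPKM values. The pseudocount of 1 RPKM makes the ratio of a gene with low values smaller than its fold. Control values are given beside as a further level. A low value in the single mutant both raises the ratio and tends to place that library below control. Such an order among higher genes is therefore no separate result.

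In the double mutant, 401 genes (4.32% of those tested) were at least 2-fold higher than in the single mutant and 108 (1.16%) at least 2-fold lower, 5.48% in either direction. The shares of 4.32% and 1.16% are those to set beside the counts of list members called. The genes that stood highest as groups were storage proteins of the fat body, prophenoloxidases of crystal cells and proteases of the gut. The lowest groups were 3 glue genes of the salivary gland and 4 neighbouring acetyltransferase-like genes that were at or close to 0 in the double mutant. Most genes differed little, since 7717 (83.2%) lay within 1.5-fold and the median ratio was 0.04, with quartiles at -0.20 and 0.30. A ratio of at least 4-fold was seen in 60 higher and 17 lower genes, and one of at least 8-fold in 11 and 6. Of the higher genes 20 were listed at 0 in the single mutant, and of the lower genes 8 were listed at 0 in the double mutant. At the edge of the calls, the antiviral gene Vago (2.90 RPKM in the double and 0.951 in the single mutant) was just counted and CG5167 (32.9 RPKM in the double and 15.96 in the single mutant, ratio 0.999) was not. On the lower side wbl (97.1 RPKM in the double and 195 in the single mutant) was just counted and GlcAT-I (4.79 RPKM in the double and 10.6 in the single mutant, ratio -0.996) was not.

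**Figure D1:**
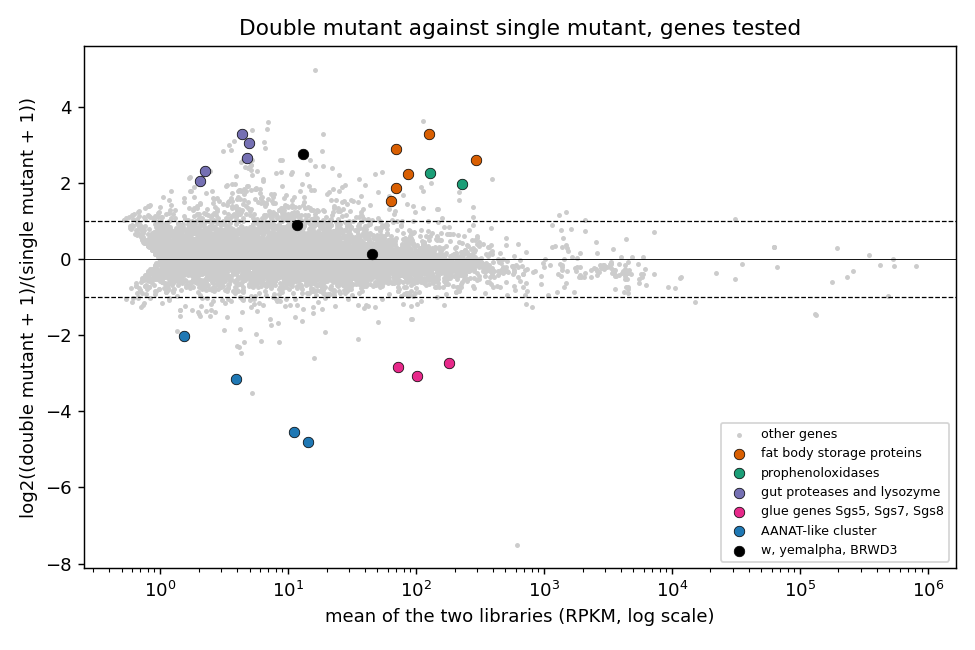
Ratio of double mutant to single mutant (log2, 1 RPKM added to each value) for the 9280 genes tested, against the mean of both libraries in RPKM on a log axis. Each point is 1 gene, coloured groups are named in the legend, and dashed lines mark 2-fold. The fat body and prophenoloxidase points lie above the upper line between about 60 and 300 RPKM, and the glue and acetyltransferase-like points lie below the lower line.

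The marker genes of the brain were present in every library. The neuronal marker elav, an RNA-binding protein of all neurons, had 40.7 RPKM in the double mutant, 32.1 in the single mutant and 21.2 in control. The neuroblast transcription factor gene dpn had 13.02 RPKM in the double mutant, 16.5 in the single mutant and 14.04 in control. The gene mira, the adaptor that neuroblasts segregate at division, had 38.5 RPKM in the double mutant, 43.9 in the single mutant and 37.3 in control. The glial transcription factor gene repo had 16.4 RPKM in the double mutant, 6.73 in the single mutant and 12.4 in control. Summed over 5 neuronal markers the levels were 105 RPKM in the double mutant, 67.3 in the single mutant and 64.4 in control. Over 5 neuroblast markers they were 71.6 RPKM in the double mutant, 87.7 in the single mutant and 77.1 in control. Over 4 glial markers they were 70.2 RPKM in the double mutant, 55.8 in the single mutant and 61.9 in control. Over 4 germline markers the sums were 2.54 RPKM in the double mutant, 2.68 in the single mutant and 1.65 in control. Of these, vas, nos and zpg were below 1 RPKM in every library. Most of each sum was bam, with 2.11 RPKM in the double mutant, 2.44 in the single mutant and 1.37 in control. In a longer list of 17 germline genes, 5 were tested, bam among them. Another was stet, with 4.36 RPKM in the double mutant, 6.43 in the single mutant and 4.25 in control.

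If the smallest common step of RPKM times transcript length is 1 read, the double mutant library held about 2.9e+07 reads and the single mutant about 2.2e+07. At that depth 1 RPKM over 1 kb of transcript rests on about 29 reads in the double mutant and 22 in the single mutant. Summed RPKM over all rows was 3.37e+07 in the double mutant, 4.08e+07 in the single mutant and 3.84e+07 in control. Over tested genes that host no small RNA the sums were 1.29e+06 RPKM in the double mutant, 1.33e+06 in the single mutant and 1.19e+06 in control, and the medians over all tested genes were 14.03 RPKM in the double mutant, 13.2 in the single mutant and 12.6 in control.

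The RNA of neither targeted gene was lower in the libraries labelled as homozygous for its allele. In the table yem bears its earlier symbol, yemalpha (3R, 24942113 to 24948597, dm3), and it had 15.6 RPKM in the double mutant, 8.04 in the single mutant and 11.9 in control. Its level was thus 1.94-fold higher in the library labelled as homozygous for a yem insertion than in the single mutant, with a ratio of 0.88. BRWD3 (3R, 20144741 to 20159036) had 47.8 RPKM in the double mutant, 43.2 in the single mutant and 29.1 in control, a ratio of 0.14. The sources used here do not state what GS21861 and PX2 do to transcripts, so these values do not check the labels. The gene w, an ABC transporter subunit for eye pigment precursors and the usual marker of GS insertions, had 23.6 RPKM in the double mutant, 2.65 in the single mutant and 6.74 in control, a ratio of 2.75. Reads of the resident w gene and of a marker copy cannot be told apart in such values. Of the 17 tested genes of eye pigment and pteridine synthesis, w was the 1 that was at least 2-fold higher, and 0 were at least 2-fold lower.

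Around the targeted loci no tested gene was called, but few genes were tested there. Over all genes 5.48% were called in either direction, so counts of 0 among so few genes are no separate result. Within 50 kb of yem, 15 other genes were tested and 0 were called in either direction, with a median ratio of -0.07. The largest differences there were in CG11880, now named Ctl2, a choline transporter-like gene (14.46 RPKM in the double mutant, 28.5 in the single mutant and 21.8 in control, ratio -0.93), and in CG11897 (3.68 RPKM in the double mutant, 1.78 in the single mutant and 3.51 in control, ratio 0.75). CG11880 begins just past the end of the yem locus. CG11877, now named Atg14, of the autophagy lipid kinase complex, shares the assembled locus of yem and had 36.4 RPKM in the double mutant, 33.7 in the single mutant and 41.2 in control. Around BRWD3, 14 genes were tested and 0 were called, with a median of 0.16. Their ratios ran from -0.28 to 0.92, with the organic cation transporter gene Orct at the upper end (21.9 RPKM in the double mutant, 11.1 in the single mutant and 14.8 in control). CG6356, a low gene there, had 1.80 RPKM in the double mutant, 0.574 in the single mutant and 1.55 in control, a ratio of 0.83 although its plain fold was above 2.

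Fat body genes were the group with the highest values relative to the single mutant. Of 12 tested members of the list, 7 were called higher and 0 lower, and the median ratio was 1.70, against 0.04 over all genes. The larval serum proteins, amino acid stores that the fat body secretes before metamorphosis, all belonged to the 7. Lsp1alpha had 231 RPKM in the double mutant, 22.98 in the single mutant and 47.3 in control. Lsp1gamma had 123 RPKM in the double mutant, 15.8 in the single mutant and 34.7 in control. Lsp1beta had 145 RPKM in the double mutant, 29.9 in the single mutant and 64.3 in control. Lsp2 had 505 RPKM in the double mutant, 82.5 in the single mutant and 271 in control. In each of these the double mutant was above control and the single mutant below it, and the folds between the mutants ran from 4.84 in Lsp1beta to 10.05 in Lsp1alpha.

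Receptor and carrier genes of the fat body followed at smaller folds. Fbp1, the receptor that takes the serum proteins back up, had 110 RPKM in the double mutant, 29.5 in the single mutant and 100.5 in control. Fbp2, another late larval fat body gene, had 95.1 RPKM in the double mutant, 32.5 in the single mutant and 62.8 in control. The odorant-binding protein gene Obp99b, abundant in larval fat body, had 637 RPKM in the double mutant, 148 in the single mutant and 320 in control. Of the 5 members that were not called, Obp99a and Obp99c are of the same family as Obp99b. Obp99a had 1263 RPKM in the double mutant, 1385 in the single mutant and 1262 in control. Obp99c had 7.88 RPKM in the double mutant, 3.73 in the single mutant and 5.68 in control, a ratio of 0.91. The other members lay close together in the mutants. The lipoprotein gene Rfabg had 13.5 RPKM in the double mutant, 11.2 in the single mutant and 17.4 in control. The lipid transfer gene Mtp had 21.2 RPKM in the double mutant, 18.2 in the single mutant and 19.3 in control. Adh, alcohol dehydrogenase, had 19.8 RPKM in the double mutant, 18.3 in the single mutant and 19.0 in control. The 7 called members were thus the storage proteins, Fbp1, Fbp2 and Obp99b, and other fat body genes of the list were not called. In RNA from whole dissected brains, a different number of cells of a type and a different amount of RNA per cell cannot be told apart.

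Blood cell genes were higher in part. The prophenoloxidase gene proPO-A1 (now PPO1), an enzyme of melanin formation in crystal cells, had 365 RPKM in the double mutant, 92.0 in the single mutant and 119 in control. CG8193 (now PPO2), the second such enzyme of crystal cells, had 214 RPKM in the double mutant, 43.6 in the single mutant and 72.7 in control. The crystal cell transcription factor gene lz differed less between the mutants, with 6.66 RPKM in the double mutant, 5.45 in the single mutant and 3.99 in control. Of 16 tested hemocyte genes 4 were called higher and 1 lower, against 4.32% and 1.16% of all genes, and the median ratio was 0.25. The 4 higher genes include proPO-A1 and CG8193, and the others are Hml and srp. The clotting protein gene Hml had 94.1 RPKM in the double mutant, 29.4 in the single mutant and 29.9 in control. The blood and fat body GATA factor gene srp had 10.3 RPKM in the double mutant, 4.02 in the single mutant and 2.49 in control. Other blood cell genes did not follow these. The membrane protein gene He had 38.6 RPKM in the double mutant and 40.4 in the single mutant, and the phagocytosis receptor gene crq had 15.97 RPKM in the double mutant and 24.5 in the single mutant. The ferritin light chain gene Fer2LCH was the 1 lower member, with 34.7 RPKM in the double mutant, 73.1 in the single mutant and 34.95 in control.

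Proteins of the basement membrane, the matrix that ensheathes the brain and that blood cells and fat body secrete, mostly had ratios above 0. Of 16 tested genes 12 did, against 54.5% of all genes, and 1 was called. The median was 0.35, or 0.23 after each ratio was centred on genes of like locus length, their median transcript being 5979 nt. Both chains of collagen IV lay at 2-fold. Cg25C had 167 RPKM in the double mutant, 82.3 in the single mutant and 50.9 in control, a ratio of 1.01. The vkg gene had 196 RPKM in the double mutant, 100.2 in the single mutant and 69.5 in control, a ratio of 0.96. The matrix protein genes Ppn (98.7 RPKM in the double mutant, 53.1 in the single mutant and 44.7 in control) and Tig (98.4 RPKM in the double mutant, 53.9 in the single mutant and 33.3 in control) had ratios of 0.88 and 0.86. The matrix metalloproteinase gene Mmp1 went the other way, with 13.8 RPKM in the double mutant, 19.7 in the single mutant and 10.1 in control. For Cg25C, vkg, Ppn and Tig the order was the same, highest in the double mutant and lowest in control. A soluble clotting factor of larval blood, fon, was among the 40 highest genes, with 15.5 RPKM in the double mutant, 1.72 in the single mutant and 7.19 in control.

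Digestive genes were a further group of higher genes, at low levels. The gut marker list had 16 tested members, of which 7 were called higher and 0 lower, with a median of 0.56. Ratios of 6 members were below 0, such as those of LysX (-0.51) and Jon99Ciii (-0.42). The chymotrypsin-like protease gene Jon65Aiii had 9.57 RPKM in the double mutant, 0.280 in the single mutant and 29.9 in control. The trypsin gene deltaTry had 8.96 RPKM in the double mutant, 0.589 in the single mutant and 25.1 in control. LysS, a gut lysozyme, had 8.77 RPKM in the double mutant, was listed at 0 in the single mutant and had 13.6 in control. For these genes, unlike the storage proteins, control was the highest library. Trypsin and lysozyme genes have near-identical copies, so reads may be split among them. Of 40 gut genes in the list most were under 1 RPKM in both mutants, and with those kept the median over 38 genes with a value was -0.0046. CG8664, among the 40 highest, likewise had 4.77 RPKM in the double mutant and 0.171 in the single mutant.

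Salivary gland genes split by kind. The glue genes, whose products fix the pupa to its support, were lower. Sgs7 had 46.7 RPKM in the double mutant, 317 in the single mutant and 84.0 in control. Sgs8 had 21.0 RPKM in the double mutant, 184 in the single mutant and 44.3 in control. Sgs5 had 17.2 RPKM in the double mutant, 129 in the single mutant and 24.0 in control. These 3 were thus 6.80 to 8.78-fold lower in the double mutant, which lay below control as well. Sgs3, a neighbour of Sgs7 and Sgs8 on 3L, had 2.65 RPKM in the double mutant, 5.40 in the single mutant and 6.89 in control. Sgs1 and Sgs4 were below 1 RPKM in every library. Eig71Ee, a gene of the late salivary gland, was the fourth lower member, with 1.05 RPKM in the double mutant, 3.21 in the single mutant and 1.27 in control.

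The new glue genes, a small family expressed in the gland before the glue genes, were instead higher. ng3 had 12.4 RPKM in the double mutant, 0.604 in the single mutant and 0.934 in control. Its neighbours ng2 (1.68 RPKM in the double mutant) and ng1 (1.21) were listed at 0 in the single mutant and stood at 0.0886 and 0.101 in control. Pig1, the pre-intermoult gene of the same cluster, had 12.4 RPKM in the double mutant, 0.784 in the single mutant and 3.62 in control. CG14265, in the same assembled locus (X, 3070475 to 3233360), had 6.19 RPKM in the double mutant, was listed at 0 in the single mutant and had 0.645 in control. Early and late gland genes therefore differed in opposite directions, and the salivary list as a whole (3 higher and 4 lower of 11 tested) had a median of -0.17. The sources used here do not state the age of the larvae within the instar, and an age difference cannot be told apart from the genotype.

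**Figure D2:**
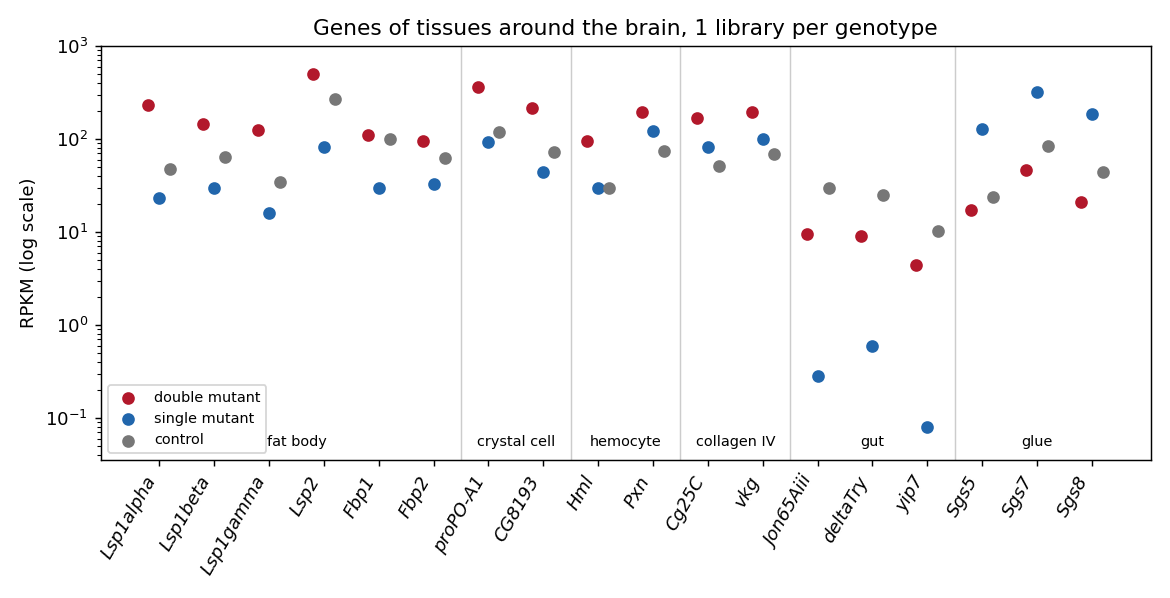
RPKM on a log axis of genes of tissues around the brain, 1 point per library, with double mutant, single mutant and control drawn left to right for each gene. Storage protein and prophenoloxidase genes are highest in the double mutant, gut proteases are highest in control and below 1 RPKM in the single mutant, and Sgs5, Sgs7 and Sgs8 are highest in the single mutant.

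Other neighbouring tissues differed less. Over 5 ring gland markers the sums were 422 RPKM in the double mutant, 497 in the single mutant and 505 in control, and nvd, which acts first in ecdysone synthesis, was the 1 called gene (5.53 RPKM in the double mutant, 1.95 in the single mutant and 5.83 in control). Muscle markers summed to 21.9 RPKM in the double mutant, 22.7 in the single mutant and 35.1 in control, with Act57B, a larval muscle actin, 2-fold higher (6.43 RPKM in the double mutant, 2.53 in the single mutant and 9.43 in control). Eye disc markers summed to 30.4 RPKM in the double mutant, 21.9 in the single mutant and 31.0 in control. Tracheal markers summed to 34.5 RPKM in the double mutant, 43.6 in the single mutant and 32.8 in control. Of these lists 0 of 5 and 0 of 4 members were called. Markers of fat body, crystal cells and gut differed more between the mutants. The double mutant was highest for fat body and crystal cells, and control was highest for gut. Over 6 fat body markers, all called higher, the sums were 1209 RPKM in the double mutant, 213 in the single mutant and 581 in control. Over 3 crystal cell markers, 2 of them called higher, they were 586 RPKM in the double mutant, 141 in the single mutant and 196 in control. Over 5 gut markers, all called higher and 1 listed at 0 in the single mutant, they were 35.6 RPKM in the double mutant, 1.13 in the single mutant and 88.6 in control. These markers were chosen with earlier results known, so that all were called is no separate result. In the longer lists 7 of 12 tested fat body genes and 7 of 16 tested gut genes were called. The part of these tissues in the results on brain genes was not tested.

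Genes of neuronal function mostly had ratios above 0. Over all tested genes 5060 (54.5%) had a ratio above 0, which is the share to set beside the counts of list members above 0. Of 18 tested voltage-gated ion channels 14 had a ratio above 0, with a median of 0.35, and 0 were called. The sodium channel gene para had 2.16 RPKM in the double mutant, 1.02 in the single mutant and 1.95 in control. The potassium channel gene Sh had 1.69 RPKM in the double mutant, 0.740 in the single mutant and 0.853 in control. Among 24 tested transmitter receptors 21 were above 0, with a median of 0.35, and 2 were called higher, against 4.32% of all genes. The octopamine receptor gene oa2 had 3.57 RPKM in the double mutant, 1.03 in the single mutant and 2.77 in control. The other, the joined row 5-HT1B,CG30126, which holds a serotonin receptor gene, had 6.17 RPKM in the double mutant, 1.17 in the single mutant and 2.07 in control, which cannot be divided between its genes.

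Presynaptic genes were mixed. Of 22 genes of vesicle release, 16 had a ratio above 0 and the median was 0.10. The active zone scaffold gene brp was the 1 called, with 21.0 RPKM in the double mutant, 7.48 in the single mutant and 10.4 in control. The calcium sensor gene Syt1 had 4.92 RPKM in the double mutant, 2.09 in the single mutant and 3.50 in control (ratio 0.94), whereas Caps, a priming factor for dense core vesicles, had 15.5 RPKM in the double mutant, 21.9 in the single mutant and 15.7 in control (ratio -0.47). Among 15 genes of transmitter synthesis and transport 10 were above 0, with a median of 0.26, and 0 were called. The GABA-synthesising enzyme gene Gad1 had 7.93 RPKM in the double mutant, 3.98 in the single mutant and 8.21 in control. Hdc, which makes histamine, had 1.04 RPKM in the double mutant, 1.59 in the single mutant and 1.17 in control.

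Adhesion and guidance genes included some of the larger differences in the brain lists. Of 35 tested genes 27 were above 0, with a median of 0.25, and 2 were called higher, a share near the 4.32% of all genes. The L1-type adhesion gene Nrg had 58.7 RPKM in the double mutant, 12.9 in the single mutant and 41.5 in control, a 4.56-fold difference. The neural cadherin gene CadN had 49.7 RPKM in the double mutant, 22.5 in the single mutant and 44.4 in control. Nrg and CadN were thus close to control in the double mutant and low in the single mutant, an order that their choice by the ratio favours. At the other end plexA, a semaphorin receptor, had 39.4 RPKM in the double mutant, 51.7 in the single mutant and 37.3 in control. The dpr and beat families of cell surface proteins had 25 of 31 above 0 and a median of 0.25. The row cno,dpr16 had the lowest ratio of all genes tested, -7.50 (5.83 RPKM in the double mutant, 1236 in the single mutant and 10.02 in control), but it joins genes over a long locus that holds a small RNA gene, so the value belongs to neither gene.

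Identity factors of neural progenitors and neurons showed a few higher members. Neuroblast genes were evenly split, 10 above and 10 below 0, with 1 called. That gene was pros, the homeodomain factor that ends self-renewal in daughters of neuroblasts, with 22.1 RPKM in the double mutant, 9.99 in the single mutant and 8.08 in control. The neuroblast factor genes wor (11.51 RPKM in the double mutant, 18.4 in the single mutant and 15.97 in control) and ase (2.43 RPKM in the double mutant, 3.70 in the single mutant and 3.03 in control) lay at the low end. Of 18 temporal patterning genes 12 were above 0 and 2 were called, with a median of 0.44. This was the highest median of the brain lists, but the rank depends on the setting. With no filter on low values the median was 0.23, below the 0.31 of ion channels. The POU factor gene nub had 6.30 RPKM in the double mutant, 1.94 in the single mutant and 4.77 in control. The row CG11071,mamo had 5.55 RPKM in the double mutant, 2.23 in the single mutant and 1.95 in control. The list of neuron identity and optic lobe factors had 20 of 27 above 0 and a median of 0.28, and vvl and oc were among the called genes.

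Long transcripts had higher ratios in general, and the brain lists are made of long transcripts. Among genes whose longest annotated transcript is over 4000 nt, 91 of 1642 (5.54%) were called higher and 2 (0.122%) lower, and the median ratio was 0.23. Among those under 500 nt, 22 of 227 (9.69%) were higher and 20 (8.81%) lower, with a median of -0.10. The median transcript was 8828 nt in the ion channel list, 5535 nt in the receptor list and 5609 nt in the guidance list. When each ratio was centred on genes of like locus length, the medians became 0.17 for channels, 0.22 for receptors, 0.12 for guidance genes, 0.09 for neuron identity factors, 0.23 for temporal factors, 0.03 for the dpr and beat families and -0.01 for vesicle release. Each of these was lower than before centring, and the last changed sign. Locus length here is the span of the assembled locus on the genome, which can differ widely from transcript length. The ratios were not centred on transcript length. Whether either length accounts for the differences in these lists was not tested. The fat body median, at 1.75, was not made smaller by centring on locus length.

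**Figure D3:**
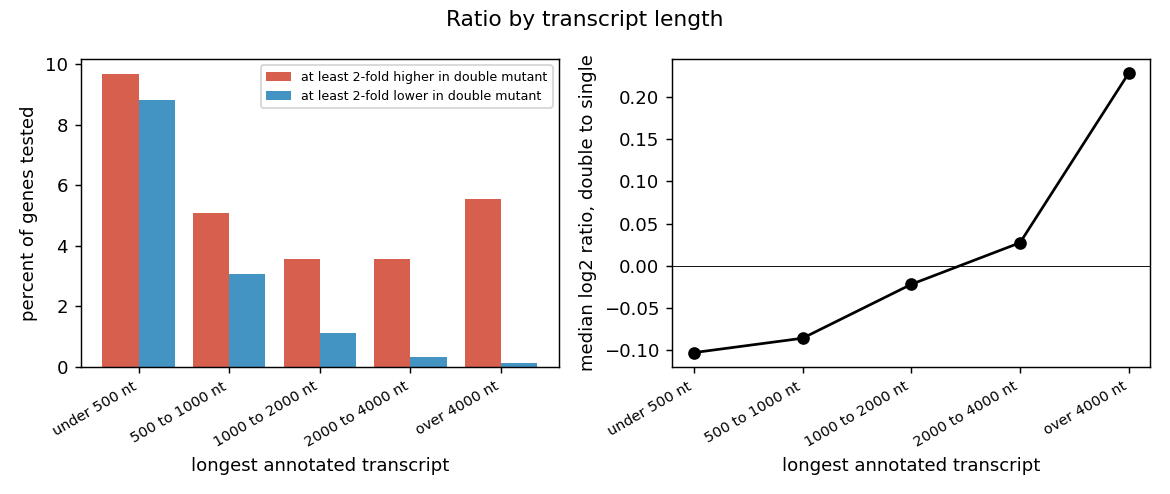
Genes grouped by their longest annotated transcript. The left panel gives the percent of genes at least 2-fold higher or lower in the double mutant than in the single mutant, and the right panel the median log2 ratio. The share of lower genes goes down from 8.81% to 0.122% with length and the median goes up from -0.10 to 0.23.

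Glial genes had 11 of 18 members above 0, with a median of 0.04, equal to that of all genes. The master regulator gene repo was the 1 called member (ratio 1.17). The ETS factor gene pnt had 4.56 RPKM in the double mutant, 2.26 in the single mutant and 2.502 in control. The glutamate transporter gene Eaat1 had 18.2 RPKM in the double mutant, 11.9 in the single mutant and 19.5 in control. The enzyme gene Gs2, glutamine synthetase, had 14.46 RPKM in the double mutant, 18.4 in the single mutant and 13.8 in control, with a ratio of -0.33.

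Within chromatin genes the H3.3 pathway itself was close between the mutants except for Hira and yem, whose ratio of 0.88 is given above. Of 14 tested genes for H3.3 and histone chaperones, yem not among them, 1 was called, with a median of 0.04. Hira, the partner of yemanuclein in H3.3 deposition, had 9.48 RPKM in the double mutant, 2.80 in the single mutant and 8.76 in control, a 3.39-fold difference. The H3.3 genes themselves had lower or like values. His3.3A had 603 RPKM in the double mutant, 571 in the single mutant and 530 in control, and His3.3B had 460 RPKM in the double mutant, 584 in the single mutant and 322 in control. The chaperone gene asf1, which hands H3 to both deposition pathways, had 29.9 RPKM in the double mutant, 30.7 in the single mutant and 27.2 in control, and XNP, the ATRX remodeller of H3.3, had 57.7 RPKM in the double mutant, 57.2 in the single mutant and 63.3 in control. Among the 6 tested genes of the cullin 4 ligase 0 were called, and pic, its DDB1 subunit, had 75.8 RPKM in the double mutant, 77.3 in the single mutant and 86.0 in control. His2Av, the H2A variant gene, had 335 RPKM in the double mutant, 98.2 in the single mutant and 272 in control, a 3.41-fold difference.

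Genes of the Polycomb and trithorax groups, which keep genes silent or active through development, mostly had ratios above 0. Of 28 tested, 24 had a ratio above 0 and 2 were called higher, and the median was 0.31, or 0.21 after centring on locus length (their median transcript is 6034 nt). Jarid2, a factor that joins Polycomb repressive complex 2, had 5.93 RPKM in the double mutant, 0.790 in the single mutant and 2.79 in control. The trithorax-group methyltransferase gene ash1 had 9.11 RPKM in the double mutant, 1.85 in the single mutant and 8.26 in control. The DNA-binding paralogs differed in direction. Here phol had 22.6 RPKM in the double mutant, 11.2 in the single mutant and 21.0 in control, whereas pho had 14.002 RPKM in the double mutant, 23.01 in the single mutant and 13.2 in control. Among 18 chromatin remodellers Iswi, the ATPase of several nucleosome spacing complexes, was the 1 called (52.3 RPKM in the double mutant, 17.96 in the single mutant and 54.3 in control), and the list median was 0.21, or 0.07 after centring on locus length. The 10 tested heterochromatin regulators had 0 called, with the methyltransferase gene egg at 34.8 RPKM in the double mutant, 33.7 in the single mutant and 33.9 in control. Hira, ash1, Iswi and His2Av shared an order in which the double mutant and control were close and the single mutant was low. They were named for high ratios, which a low single mutant value favours, so this order is no separate result.

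**Figure D4:**
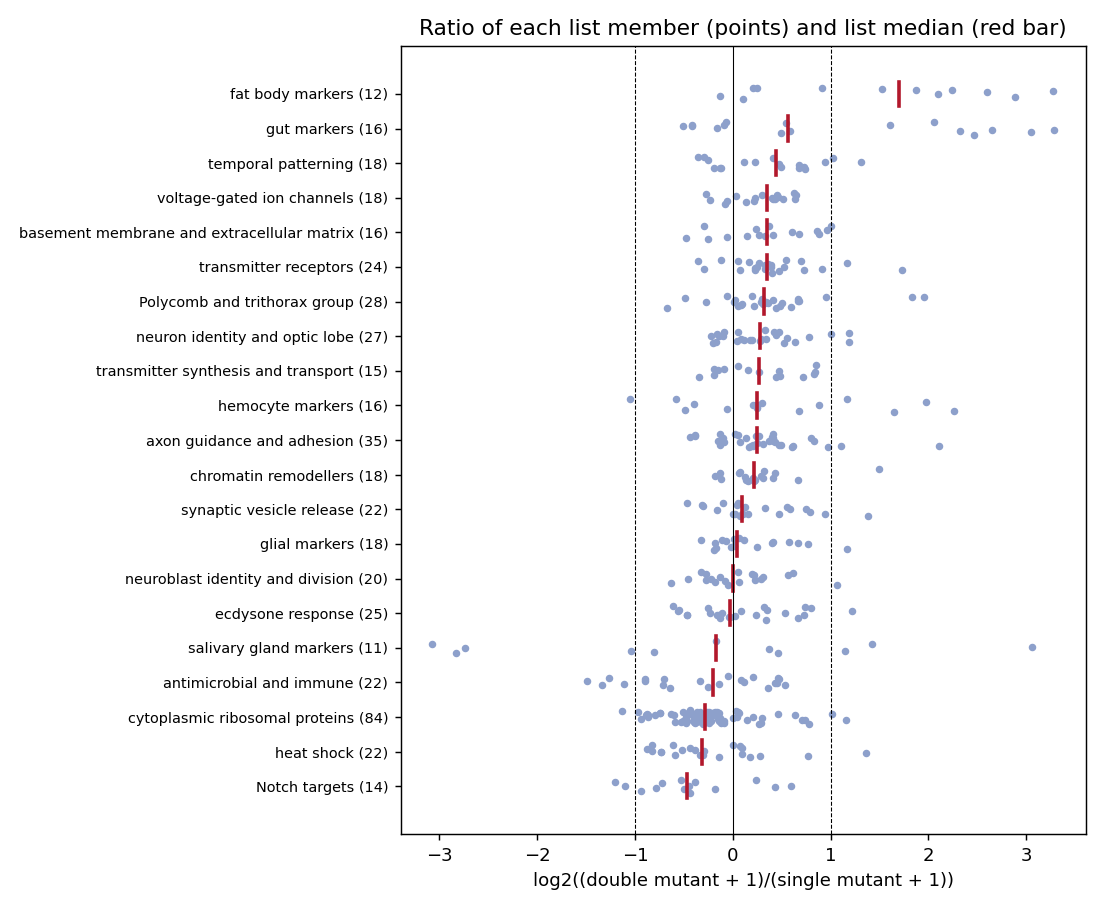
Ratio of double mutant to single mutant (log2, 1 RPKM added) for every tested member of 21 gene lists, sorted by list median (red bars), with the number tested in brackets. Solid and dashed vertical lines mark equal levels and 2-fold. The fat body median of 1.70 stands to the right, most brain lists lie between 0 and 0.5, and Notch targets, heat shock and ribosomal protein genes have medians below -0.2.

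Most Notch target genes had ratios below 0, but few were called. Notch signalling keeps neuroblasts and optic lobe progenitors dividing, and its targets include the bHLH repressors and Bearded-type genes of the Enhancer of split complex. Of 14 tested, 11 had a ratio below 0 and 2 were called lower, and the median was -0.47 (-0.38 after centring on locus length, the median transcript being 963 nt). The called ones were m1 and the row HLHm3,HLHmgamma, which joins a pair of bHLH repressor genes of that complex. The gene m1 had 6.75 RPKM in the double mutant, 16.9 in the single mutant and 10.9 in control. The row HLHm3,HLHmgamma had 68.5 RPKM in the double mutant, 149 in the single mutant and 68.8 in control. HLHm7, a bHLH repressor gene, had 60.8 RPKM in the double mutant, 118 in the single mutant and 91.1 in control. The Bearded-type gene malpha had 123 RPKM in the double mutant, 204 in the single mutant and 130 in control. The ratios above 0 were those of Tom, E(spl) (0.43) and HLHm5 (0.23). Tom, a Bearded-type inhibitor of Notch ligands that lies outside this complex, had 130 RPKM in the double mutant, 85.7 in the single mutant and 175 in control. The 18 genes that make up the pathway itself had 0 called, and the receptor gene N had 114.5 RPKM in the double mutant, 88.1 in the single mutant and 84.0 in control. The ratio of N was 0.38.

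Hormone genes gave single differences rather than a shift of a list. Insulin-like peptide genes of the brain's producing cells were lower. Ilp2 had 18.8 RPKM in the double mutant, 39.7 in the single mutant and 63.0 in control. Ilp5 had 3.22 RPKM in the double mutant, 7.70 in the single mutant and 11.4 in control. Ilp3 had 5.94 RPKM in the double mutant, 13.3 in the single mutant and 14.04 in control. Their ratios were all -1.04. The receptor gene InR was higher, with 10.6 RPKM in the double mutant, 4.35 in the single mutant and 6.95 in control. Ilp7, made in other neurons, had 2.58 RPKM in the double mutant, 0.919 in the single mutant and 1.46 in control, a ratio of 0.90. For Ilp2 and Ilp5 control was the highest library and the double mutant the lowest.

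Among genes of ecdysone and juvenile hormone synthesis, 3 of 17 were higher and 0 lower, against 4.32% and 1.16% of all genes. Npc1a, the sterol transporter that supplies cholesterol for ecdysone, had 32.9 RPKM in the double mutant, 10.52 in the single mutant and 31.0 in control. Jheh3, a juvenile hormone epoxide hydrolase gene, had 3.57 RPKM in the double mutant, 1.02 in the single mutant and 6.56 in control. The later enzymes of the pathway were lower by less than 2-fold, such as sad (155 RPKM in the double mutant, 207 in the single mutant and 192 in control) and spok (24.2 RPKM in the double mutant, 36.8 in the single mutant and 25.7 in control). Ecdysone response genes had 12 of 25 above 0, with a median of -0.03. The receptor gene EcR had 30.8 RPKM in the double mutant, 17.3 in the single mutant and 22.9 in control. The early gene Eip75B had 30.1 RPKM in the double mutant, 18.6 in the single mutant and 10.8 in control. ImpE2, an inducible disc gene, had 399 RPKM in the double mutant, 612 in the single mutant and 249 in control. The 1 called gene, Eip55E, an enzyme of cysteine synthesis, had 138 RPKM in the double mutant, 58.5 in the single mutant and 73.5 in control.

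Neuropeptide genes had 11 of 21 above 0, and 1 was called. Nplp2 had 78.03 RPKM in the double mutant, 22.5 in the single mutant and 16.6 in control. The eclosion hormone gene Eh, which triggers moulting behaviour, lay just under the threshold with 3.502 RPKM in the double mutant, 1.26 in the single mutant and 3.43 in control. Peptide genes for feeding, hug (12.3 RPKM in the double mutant, 8.08 in the single mutant and 20.9 in control) and npf (12.7 RPKM in the double mutant, 8.35 in the single mutant and 20.3 in control), had ratios of 0.55, and in both control was highest. The adipokinetic hormone gene Akh, made in the ring gland, had 12.3 RPKM in the double mutant, 18.7 in the single mutant and 16.96 in control.

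Several families stood out among the highest genes and were gathered into lists after their values were seen, so their counts describe and carry no further weight. The counts of the other lists, written with earlier results of these data known, likewise only describe. Of 8 genes for polypeptide GalNAc transferases, which start mucin-type sugar chains on secreted proteins, 3 were called higher and 0 lower. GalNAc-T2 (now Pgant7) had 34.6 RPKM in the double mutant, 2.67 in the single mutant and 23.5 in control. GalNAc-T1 (now Pgant1) had 15.2 RPKM in the double mutant, 2.34 in the single mutant and 11.4 in control. The gene pgant2 had 9.24 RPKM in the double mutant, 1.20 in the single mutant and 5.70 in control. The family member pgant5 had 11.2 RPKM in the double mutant and 11.9 in the single mutant, so the difference was not shared by all. Elongator is a complex that modifies transfer RNA. Its subunit gene Elp3 had 33.3 RPKM in the double mutant, 3.82 in the single mutant and 32.5 in control. Elp2 had 15.2 RPKM in the double mutant, 4.09 in the single mutant and 18.1 in control. In both the single mutant was the low library and the double mutant lay closer to control, an order that their choice by the ratio favours.

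Membrane traffic gave a similar picture. Both clathrin chains were higher. Chc had 175 RPKM in the double mutant, 50.1 in the single mutant and 150 in control. Clc had 209 RPKM in the double mutant, 83.0 in the single mutant and 144 in control. The adaptor genes that bind clathrin were not higher. AP-50 had 87.3 RPKM in the double mutant, 120 in the single mutant and 80.2 in control. AP-2sigma had 77.7 RPKM in the double mutant, 116 in the single mutant and 95.97 in control. Of 25 tested Rab GTPases, switches of vesicle transport, and against 4.32% of all genes, 3 were called higher. These were Rab14 (8.995 RPKM in the double mutant, 0.594 in the single mutant and 5.89 in control), Rab6 (43.0 RPKM in the double mutant, 15.2 in the single mutant and 33.7 in control) and Rab23 (7.53 RPKM in the double mutant, 3.04 in the single mutant and 5.05 in control), while Rab7 had 18.3 RPKM in the double mutant, 28.7 in the single mutant and 12.5 in control. Of 9 tested methuselah-family receptors 4 were higher, among them mth, a gene tied to lifespan, with 18.1 RPKM in the double mutant, 6.42 in the single mutant and 19.0 in control.

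Further single genes among the 40 highest have known roles. The TNF ligand gene egr had 28.0 RPKM in the double mutant, 4.38 in the single mutant and 21.8 in control, but a small RNA gene lies in it. Gug, a transcriptional corepressor of the atrophin type, had 15.96 RPKM in the double mutant, 1.82 in the single mutant and 7.42 in control. The gene alph, a phosphatase gene that restrains Ras signalling, had 32.5 RPKM in the double mutant, 5.12 in the single mutant and 19.3 in control. The copper transporter gene ATP7 had 8.78 RPKM in the double mutant, 0.883 in the single mutant and 6.09 in control. Cad86C, a cadherin gene, had 10.2 RPKM in the double mutant, 1.23 in the single mutant and 5.69 in control. For all of these the double mutant was highest and the single mutant lowest, an order that their choice by the ratio favours. A different pattern was seen in CG11697 (now Reepl1), which had the highest ratio of all, 4.97, with 32.4 RPKM in the double mutant, 0.0652 in the single mutant and 0.192 in control (X, 11466740 to 11467673). The P450 genes Cyp4p2 (10.46 RPKM in the double mutant, 0.0871 in the single mutant and 0.107 in control) and Cyp4p1 (4.29 RPKM in the double mutant, 0.0538 in the single mutant and 0.254 in control), which share a locus, also had their signal in the double mutant library. Acp98AB, with 7.54 RPKM in the double mutant, and CG42852, with 6.95, were listed at 0 in both other libraries.

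Detoxification genes were otherwise spread on both sides. Of 44 tested P450 genes 5 were called higher and 0 lower, against 4.32% and 1.16% of all genes, and the median was 0.18. Cyp4d1 had 11.2 RPKM in the double mutant, 4.16 in the single mutant and 2.14 in control. Cyp28d1 had 3.68 RPKM in the double mutant, 1.10 in the single mutant and 8.12 in control. At the low end Cyp6a17 had 10.8 RPKM in the double mutant, 19.4 in the single mutant and 20.6 in control. Glutathione S-transferases, which conjugate toxins and oxidised products, had 0 of 17 higher and 2 lower, against 4.32% and 1.16% of all genes. GstE3 had 7.0 RPKM in the double mutant, 19.03 in the single mutant and 13.96 in control. GstD5 had 4.92 RPKM in the double mutant, 11.49 in the single mutant and 1.96 in control.

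Among metal and stress genes MtnA, MtnD and Gadd45 were called lower. The metal-binding metallothionein MtnA had 99.5 RPKM in the double mutant, 232 in the single mutant and 114 in control. MtnD had 0.706 RPKM in the double mutant, 7.32 in the single mutant and 2.26 in control. Metallothioneins and iron genes were also listed after the values were seen. The iron carrier gene Tsf1 was higher, with 136 RPKM in the double mutant, 51.6 in the single mutant and 66.4 in control, in contrast to the ferritin gene Fer2LCH given above. Gadd45, a gene of the damage response, had 54.0 RPKM in the double mutant, 128 in the single mutant and 37.0 in control. Jra, the Jun gene, had 65.3 RPKM in the double mutant, 118 in the single mutant and 67.2 in control, and was not called (ratio -0.85). The apoptosis and stress kinase list had 10 of 25 above 0 and a median of -0.17, with egr and Gadd45 called in opposite directions.

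Heat shock genes had 14 of 22 members below 0 and a median of -0.32. Hsp27, a small chaperone gene, was the 1 called, with 399 RPKM in the double mutant, 155 in the single mutant and 223 in control. The Hsp70 genes, which are near-identical copies whose reads cannot be separated, were lower by less than 2-fold, such as Hsp70Bb with 144 RPKM in the double mutant, 264 in the single mutant and 255 in control. Hsp23 had 3279 RPKM in the double mutant, 5439.9 in the single mutant and 4418 in control. Antimicrobial and immune genes had 13 of 22 below 0 and 4 called lower, against 1.16% of all genes, with a median of -0.20. AttA, an attacin, had 0.820 RPKM in the double mutant, 4.11 in the single mutant and 2.81 in control. AttB had 2.63 RPKM in the double mutant, 7.72 in the single mutant and 5.82 in control. The cecropin gene CecA1 had 1.29 RPKM in the double mutant, 3.93 in the single mutant and 0.224 in control. These levels are low, and AttA and AttB are close copies.

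Most housekeeping lists gave few calls, with medians at or below that of all genes. Of 84 cytoplasmic ribosomal protein rows 68 had a ratio below 0, with a median of -0.28, 2 higher and 1 lower. RpS15 had 1823 RPKM in the double mutant, 817 in the single mutant and 1931 in control. RpL41, the shortest of these proteins, had 9449.97 RPKM in the double mutant, 20739 in the single mutant and 13585 in control. Of these rows 32 host a small RNA gene or share a locus with a small or mitochondrial RNA row, whose reads may be counted with them. The transcripts are short, with a median of 882 nt. Mitochondrial ribosomal proteins (74 tested, median -0.10), proteasome subunits (30, median -0.05), respiratory chain genes (24, median -0.12) and cell cycle and replication genes (38, median 0.04) had 0 called in either direction. In central metabolism 1 of 17 genes was called. Pepck, which starts gluconeogenesis, had 6.09 RPKM in the double mutant, 1.69 in the single mutant and 5.91 in control, while the glycolytic gene Gapdh1 had 288 RPKM in the double mutant, 189 in the single mutant and 346 in control. Tubulins and actins were an exception, with 3 of 13 tested genes called higher, 0 lower and a median of 0.08. The called tubulin gene alphaTub84B, often taken as a constant, had 2068 RPKM in the double mutant, 885 in the single mutant and 2286 in control. The gene betaTub56D had 2294 RPKM in the double mutant, 2861 in the single mutant and 2727 in control.

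Of 43 tested cuticle genes 3 were called higher and 3 lower, against 4.32% and 1.16% of all genes. Cpr66D, at the upper end, had 6.08 RPKM in the double mutant, 1.94 in the single mutant and 2.32 in control. Pcp, a pupal cuticle gene, had 7.59 RPKM in the double mutant, 31.5 in the single mutant and 25.2 in control. Lcp4, a larval one, had 2.77 RPKM in the double mutant, 8.77 in the single mutant and 73.7 in control. Among 47 tested odorant-binding and receptor genes 2 were higher and 2 lower, against the same shares of all genes, 4.32% and 1.16%. The lower ones were Obp56d (46.5 RPKM in the double mutant, 139 in the single mutant and 17.9 in control) and Ir40a, an ionotropic receptor gene (3.45 RPKM in the double mutant, 13.4 in the single mutant and 0.102 in control), both highest in the single mutant. The row Arc1,CG10102, which holds the capsid-like synaptic gene Arc1, had 439 RPKM in the double mutant, 1000.3 in the single mutant and 93.3 in control. Among sex and dosage genes fru, a sex-specific neuronal factor, was called (16.04 RPKM in the double mutant, 6.498 in the single mutant and 11.4 in control), and the male RNAs roX1 (66.7 RPKM in the double mutant, 63.7 in the single mutant and 46.2 in control) and roX2 (312 RPKM in the double mutant, 264 in the single mutant and 368 in control) were close in the mutants.

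The clearest block of lower genes lay on 2R, where 4 adjacent genes were at or close to 0 in the double mutant (15172056 to 15177305, dm3). They resemble arylalkylamine N-acetyltransferases, enzymes that acetylate amines such as dopamine and serotonin. CG10474 had 0 RPKM in the double mutant, 22.4 in the single mutant and 7.91 in control. CG18607 (now AANATL4) had 0.0524 RPKM in the double mutant, 28.7 in the single mutant and 15.6 in control. CG10476 (now AANATL5) had 0 RPKM in the double mutant, 7.86 in the single mutant and 3.04 in control. CG18606 (now AANATL6) had 0 RPKM in the double mutant, 3.07 in the single mutant and 1.40 in control. In each the single mutant was highest and control intermediate. The genes on both sides did not share this. CG11906 had 13.7 RPKM in the double mutant, 13.3 in the single mutant and 13.9 in control. FK506-bp2, a prolyl isomerase gene, had 576 RPKM in the double mutant, 637 in the single mutant and 521 in control. Other genes of the family elsewhere were measured in both mutants. Dat, the main dopamine acetyltransferase, had 27.3 RPKM in the double mutant, 18.5 in the single mutant and 24.6 in control. CG9486 had 15.002 RPKM in the double mutant, 17.3 in the single mutant and 11.0 in control. In RPKM values of 1 library, absent sequence and absent expression cannot be told apart.

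**Figure D5:**
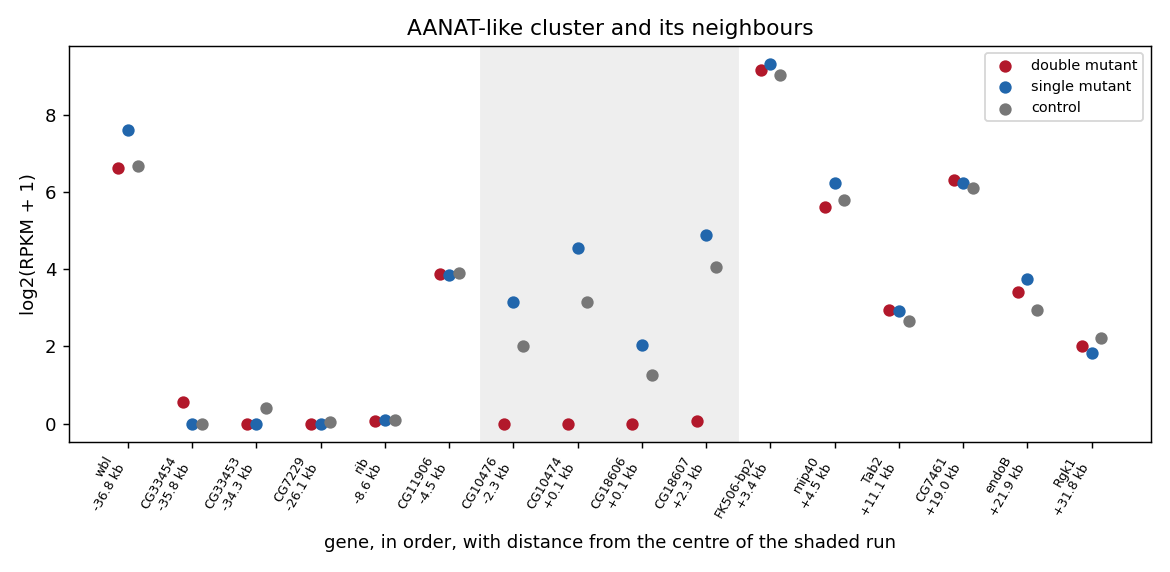
Expression, as log2 of RPKM + 1, of the 4 acetyltransferase-like genes (shaded) and their neighbours in chromosome order, with double mutant, single mutant and control drawn left to right for each gene. The double mutant points are at or close to 0 in the shaded genes, while the neighbours CG11906 and FK506-bp2 have like values in all 3 libraries.

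Such runs of at least 3 neighbouring tested genes called in the same direction were few. There were 9 runs, 7 higher and 2 lower, holding 28 genes, and the acetyltransferase-like run was the longest with 4. The other lower run, on 2R, joined CG18278, the immune-induced row CG33470,IM10 (0.380 RPKM in the double mutant, 2.49 in the single mutant and 0.616 in control) and CG30059. On 3L (7326638 to 7338281) the cohesin acetyltransferase gene eco (12.5 RPKM in the double mutant, 3.11 in the single mutant and 9.51 in control) lay between CG8600 (51.6 RPKM in the double mutant, 22.8 in the single mutant and 41.1 in control) and CG8596, now Cln7, a lysosomal transporter (13.97 RPKM in the double mutant, 2.12 in the single mutant and 13.5 in control). Also on 3L, Lsp2 lay between yps, an RNA-binding protein gene (212 RPKM in the double mutant, 84.7 in the single mutant and 145 in control), and CG11534, now DEF8 (9.29 RPKM in the double mutant, 1.05 in the single mutant and 7.72 in control).

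On 2L (14737097 to 14745210) the small genes CG31775 (17.1 RPKM in the double mutant, 7.07 in the single mutant and 4.73 in control), CG34166 (210.4 RPKM in the double mutant, 16.2 in the single mutant and 56.1 in control) and CG42587 (3.41 RPKM in the double mutant, 0 in the single mutant and 0 in control) formed a run of uncharacterised genes. The gut proteases yip7, Jon65Aiv and Jon65Aiii formed another on 3L. The runs of ng1, ng2 and ng3 on X and of CG12310, CG13460 and CG18649 on 3L each share 1 assembled locus. A last run on 3R held CG10864, CG31122 and fru.

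Among the large chromosome arms, the share of higher genes ran from 3.53% on 3R, which carries both targeted genes, to 5.13% on 3L. Among the same arms the share of lower genes was highest on 2R (35 of 1870, 1.87%) and lowest on X (9 of 1561, 0.577%). The 78 tested genes of chromosome 4 had a median ratio of -0.22, with 2 higher and 0 lower. By level, the share of higher genes was greatest between 2 and 10 RPKM (187 of 2720, 6.88%) and 2.44% between 50 and 250 RPKM, and the 300 genes over 250 RPKM had a median of -0.21. Of the calls, 204 higher and 67 lower genes bear only a CG number as their symbol in the table, among them some that have a newer name given above.

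The remaining lower genes among the 40 lowest had few named members. CG42680, a very short gene on 2L, was listed at 0 in the double mutant, against 10.4 RPKM in the single mutant and 1.87 in control. CG33346 had 0.627 RPKM in the double mutant, 7.998 in the single mutant and 0.720 in control. CG5399 had 12.7 RPKM in the double mutant, 58.2 in the single mutant and 6.98 in control. In both the single mutant was the high library. CG7580 (now UQCR-Q), a subunit of respiratory complex III, had 24.1 RPKM in the double mutant, 77.4 in the single mutant and 39.4 in control. CG11592 (now Amnionless), a receptor subunit of nephrocytes, had 7.99 RPKM in the double mutant, 23.1 in the single mutant and 4.51 in control. CG17121 had 45.4 RPKM in the double mutant, 137 in the single mutant and 54.2 in control. The feeding-related gene fit had 1.23 RPKM in the double mutant, 5.43 in the single mutant and 2.35 in control. Tudor-SN, a nuclease gene at 70169 RPKM in the double mutant and 191915 in the single mutant, hosts a small RNA gene, so its level is uncertain.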

How the data were processed

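Per the labels' protocols, ribosomal RNA was removed from DNase-treated total RNA of dissected brains and libraries were made with an Ion Total RNA-Seq kit. Per the submitters' processing notes, the tools were TopHat2 2.0.9 and Cufflinks 2.0.2, with FastQC and Trimmomatic, on the build dm3. The sources used here give neither settings nor strand handling, so reads of a gene and an antisense partner cannot be told apart. The authors deposited 1 table of RPKM values, 15229 rows with a column per library. Of these, 1769 rows name no gene, 236 named small or mitochondrial RNAs and 1 row with a missing value were left out, and for each name the row of highest mean was used. Starts were raised by 1 base to count from 1. RPKM carries no read numbers, so depths are estimates and no interval can be given.

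Ratios were log2 with 1 RPKM added, over genes with at least 1 RPKM in either mutant, computed with Python 3.11.15, pandas 2.3.3 and numpy 2.4.6. The counting was tested on simulated data. Rows that join genes (444 tested) and hosts of small RNAs (398 tested) were kept. Transcript lengths (8697 genes), current names and small RNA hosts came from BDGP6 annotations, of which no coordinates were used. Named were the targeted genes and w, the 40 highest and 40 lowest ratios, the 6 highest and 6 lowest of each list, genes within 50 kb of a target and members of runs, and others given as markers were chosen with their values known. The comparison, members and lists were chosen with earlier results of these data known. Alternatives changed the pseudocount, filter, threshold, centring, and the treatment of joined rows, repeated names, small RNAs and hosts.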

Additional observations from a re-analysis of the deposited data

How the results depend on the processing

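With a pseudocount of 0.1 RPKM the counts were 632 higher and 219 lower genes in the double mutant relative to the single mutant, and with 5 RPKM 145 and 44. A threshold of 1.5-fold gave 1057 and 506, and one of 3-fold 126 and 26. The other settings kept both counts within 1.5 times of 401 and 108. Centring on the library median gave 347 and 133, centring on locus length 363 and 110, of which 348 and 96 were called in both, and rescaling to the same total over genes that host no small RNA, a choice made after the data were seen, 436 and 104. Higher genes outnumbered lower ones in each setting run. Of 82 genes, those with the 40 highest and 40 lowest ratios and both targeted genes, 15 passed under 2-fold with a pseudocount of 5 RPKM and 0 changed sign. Of the list medians 1 of at least 0.2 changed sign, that of gut markers, 0.56 in the main setting and -0.0046 with no filter on low values. Among medians closer to 0 several changed sign, such as that of glial markers, 0.04 in the main setting and -0.05 after centring on locus length. No paired analysis was possible because each genotype has 1 library and nothing could be left out. Low genes are limited by depth: about 29 reads in the double mutant and 22 in the single mutant per RPKM and kb.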
